A study of Mus musculus with 2 samples.

Results

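The MHC class I presentation genes were a set of 10 genes chosen by symbol, out of 31053 genes counted: the heavy chains *H2-K1*, *H2-D1* and *H2-T23*, the light chain *B2m*, the peptide transporter genes *Tap1* and *Tap2*, the loading gene *Tapbp*, the immunoproteasome genes *Psmb8* and *Psmb9*, and the regulator *Nlrc5*. All 10 were found, and all 10 had UMIs (unique molecular identifiers, each standing for 1 captured RNA molecule) in both libraries. ATMs (adipose tissue macrophages) had been sorted as CD45+Lin-Ly6Clow/-F4/80+ cells from the epididymal fat of male C57/BL6 mice aged 8 to 12 weeks. One library came from 3 pooled mice kept on control chow (CD) and 1 from 3 pooled mice given a high-fat diet (HFD) overnight, so that each diet had 1 library and no replicate. No p-value was therefore computed. Diet cannot be told apart from pool or library, intervals are 95% and cover counting error only, and every level is a share of the RNA counted (CPM, UMIs per 1000000 UMIs of the same cells). Cells with 200 to 3500 genes and at most 10% mitochondrial UMIs were kept.

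After these limits, 2364 CD cells held 12284010 UMIs and 2021 HFD cells held 8086475. Depth differed, with a median of 4490.5 UMIs a cell on CD and 2792 on HFD, and 14.4% and 40.8% of cells had under 1000 genes. The libraries shared 14 barcodes, of which 7 were kept in both. All 8 macrophage markers of a fixed list were present, at a summed level of 10366 CPM on CD and 6653 CPM on HFD, whereas T or NK cell markers summed to 36 UMIs on CD (5 of 6 seen) and 8 on HFD (3 of 6 seen), and B cell markers to 62 and 47 UMIs (2 of 4 seen), with *Cd3e* and *Ms4a1* at 0 in both. Stromal and mesothelial markers summed to 881 UMIs on CD, with all 6 seen, and 34 UMIs on HFD, with 3 of 6 at 0; endothelial markers summed to 21.9 and 12.9 CPM. Dendritic markers, with all 7 seen, summed to 206 and 179 CPM, with a UMI in 42.4% of CD and 29.3% of HFD cells. Erythroid markers summed to 611 and 703 CPM, in 21.1% and 5.99% of cells. Some results are given below without cells that held selected endothelial, T or NK, B, stromal or mesothelial markers. Beyond that, the part of other cells in the results was not tested. Cell classes were defined by a UMI of *Lyve1*, *Ccr2*, *Plac8* or *Trem2*, or by at least 10 UMIs of *Lyz1* (Lyz1-high), and a cell could belong to several. On CD and HFD they held 1172 and 415 Lyve1+, 1326 and 1131 Ccr2+, 555 and 672 Lyz1-high, 42 and 73 Plac8+, and 638 and 168 Trem2+ cells. A single UMI defines most classes, so that depth can bear on who enters them. Of the 555 Lyz1-high CD cells, with a median of 8205 UMIs, 531 (95.7%) were also Ccr2+. Among them 22.2% were also Lyve1+ and 18.2% Trem2+, against 49.6% and 27.0% of all CD cells. The part of depth in these overlaps was not tested.

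MHC class I molecules show peptides from inside the cell to CD8 T cells. Proteins are cut by the proteasome, in which the interferon-inducible subunits encoded by *Psmb8* and *Psmb9* can replace constitutive ones; the peptides are carried into the endoplasmic reticulum by the TAP transporter, made of the *Tap1* and *Tap2* products, and are loaded with the help of tapasin (*Tapbp*) onto a heavy chain paired with beta-2 microglobulin (*B2m*). *H2-K1* and *H2-D1* encode the classical heavy chains of the mouse, and *H2-T23* encodes the non-classical Qa-1, which is read by NK and T cell receptors of the NKG2 family. NLRC5 drives transcription of class I genes through a promoter module that regulatory factor X, CREB-type factors and NF-Y bind, and interferon and NF-kappaB act through elements upstream of it.

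In the GENCODE annotation of GRCm38, 8 members lie on chromosome 17, in the mouse H-2 complex: *Tapbp* (33915899 to 33929292, plus strand), *H2-K1* (33996017 to 34000347, minus), *Psmb9* (34181987 to 34187764, minus), *Tap1* (34187553 to 34197225, plus), *Psmb8* (34197721 to 34201454, plus), *Tap2* (34203527 to 34216321, plus), *H2-D1* (35262730 to 35267499, plus) and *H2-T23* (36029773 to 36032855, minus). *B2m* is on chromosome 2 (122147686 to 122153083, plus) and *Nlrc5* on chromosome 8 (94434356 to 94527272, plus). *Psmb9* and *Tap1* start head to head and their annotated ends overlap, and the 4 genes from *Psmb9* to *Tap2* span 34335 bases. Because class I heavy chains resemble each other, the last 500 bases of the longest coding transcript of each member were searched for stretches of 90 bases that occur unaltered in a transcript of another gene. *H2-K1* and *H2-D1* had none among 411 stretches each, as did 7 other members, while *H2-T23* shared 55 of 411 (13.4%) with *H2-T-ps*, *Hook2* or *Rab33b*, so its counts are less certain.

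RefSeq promoters (250 bases before to 50 after the start, GRCm38.p6) were found for 8 members. The promoters of the most abundant members are shown because these genes are known for shared control elements, while their ratios between the diets were unlike. Capitals mark matches on either strand to an interferon response element (GAAANNGAA or GAANNGAAA), a kappaB element (GGGGATTCC), and the pair TGACG and ATTGG with 15 to 35 bases between, as in the module used by NLRC5; the matches shown did not overlap each other. *H2-K1* is chr17:34000298-34000597, minus strand, *H2-D1* chr17:35262844-35263143, plus strand, and *B2m* chr2:122147437-122147736, plus strand, each written 5′ to 3′ along its gene.
H2-K1: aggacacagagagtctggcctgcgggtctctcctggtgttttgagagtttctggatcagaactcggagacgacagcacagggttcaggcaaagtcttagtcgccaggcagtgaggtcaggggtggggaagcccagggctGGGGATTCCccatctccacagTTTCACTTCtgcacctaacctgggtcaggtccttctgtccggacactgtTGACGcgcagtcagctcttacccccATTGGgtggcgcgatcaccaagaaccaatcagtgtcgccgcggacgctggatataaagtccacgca
H2-D1: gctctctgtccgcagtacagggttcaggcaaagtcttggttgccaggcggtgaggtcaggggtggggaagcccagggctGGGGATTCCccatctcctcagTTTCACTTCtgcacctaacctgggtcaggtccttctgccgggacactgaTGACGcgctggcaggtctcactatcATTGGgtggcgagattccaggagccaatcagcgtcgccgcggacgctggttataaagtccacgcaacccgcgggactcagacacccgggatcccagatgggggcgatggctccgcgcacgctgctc
B2m: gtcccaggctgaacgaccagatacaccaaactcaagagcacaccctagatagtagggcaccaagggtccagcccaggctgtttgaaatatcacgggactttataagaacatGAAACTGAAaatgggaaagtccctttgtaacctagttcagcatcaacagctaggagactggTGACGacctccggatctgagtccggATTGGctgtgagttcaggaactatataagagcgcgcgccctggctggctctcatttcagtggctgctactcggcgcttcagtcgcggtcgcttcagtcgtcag

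The pair of TGACG and ATTGG was found in 3 of the 8 members with a promoter, *H2-K1*, *H2-D1* and *B2m*, and in 0.685% of all 32851 promoters of the table. The kappaB letters were in 2 of 8 (*H2-K1* and *H2-D1*) and in 0.25% of all. The interferon letters were in 4 of 8, these 3 and *H2-T23*, and in 14.8% of all promoters. In *H2-K1* and *H2-D1* the elements stood in the same order, kappaB, interferon and then the pair. Relative to the start they began at -111, -90 and -41 in the *H2-K1* window shown, and at -171, -150 and -101 in *H2-D1*. A second RefSeq window of *H2-K1*, not shown, held the same matches. The part of these letters in the ratios between the diets was not tested. The kappaB search used 1 fixed run of letters. This run and the pair follow elements known from class I genes, so the shares of members and of all promoters are no test of the members. A match is a description of letters and not a measured site, and no match says only that these letters are not in the window.

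Among the members, *B2m*, *H2-D1* and *H2-K1* had the highest levels. *B2m* had 2205 CPM on CD (95% Poisson interval 2179 to 2231) and 2013 CPM on HFD (1982 to 2044). *H2-D1* had 1895 CPM on CD (1871 to 1920) and 2368 CPM on HFD (2334 to 2402), which put it below *B2m* on CD and above it on HFD. *H2-K1* had 936 CPM on CD (919 to 953) and 895 CPM on HFD (874 to 915). The intervals of the diets did not overlap for these 3 genes, and they lay apart in opposite directions: *H2-D1* was higher on HFD and the others were lower. For *H2-K1* the direction depended on scaling, with a log2 ratio of HFD over CD of 0.09 when cells were weighed equally.

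The transporter and loading genes were far lower. *Tapbp* had 136 CPM on CD (129 to 143) and 104 CPM on HFD (97.4 to 112). *Tap2* had 41.8 CPM on CD (38.2 to 45.5) and 47.5 CPM on HFD (42.9 to 52.5), with overlapping intervals. *Tap1* had 31.5 CPM on CD (28.4 to 34.8) and 32.6 CPM on HFD (28.8 to 36.8), also overlapping. Of the immunoproteasome genes, *Psmb8* had 202 CPM on CD (194 to 210) and 178 CPM on HFD (169 to 187). *Psmb9* had 64.1 CPM on CD (59.7 to 68.7) and 57.5 CPM on HFD (52.4 to 63.0). The non-classical *H2-T23* had 64.9 CPM on CD (60.5 to 69.5), within the interval of *Psmb9* there, and 82.1 CPM on HFD (76.0 to 88.6), above *Psmb9*. *Nlrc5* was close to the limit of detection, with 51 UMIs on CD (4.15 CPM, 3.09 to 5.46) and 38 on HFD (4.70 CPM, 3.33 to 6.45). The other neighbours in the order of levels on CD had separate intervals; on HFD those of *Psmb9* and *Tap2* met.

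**Figure D1:**
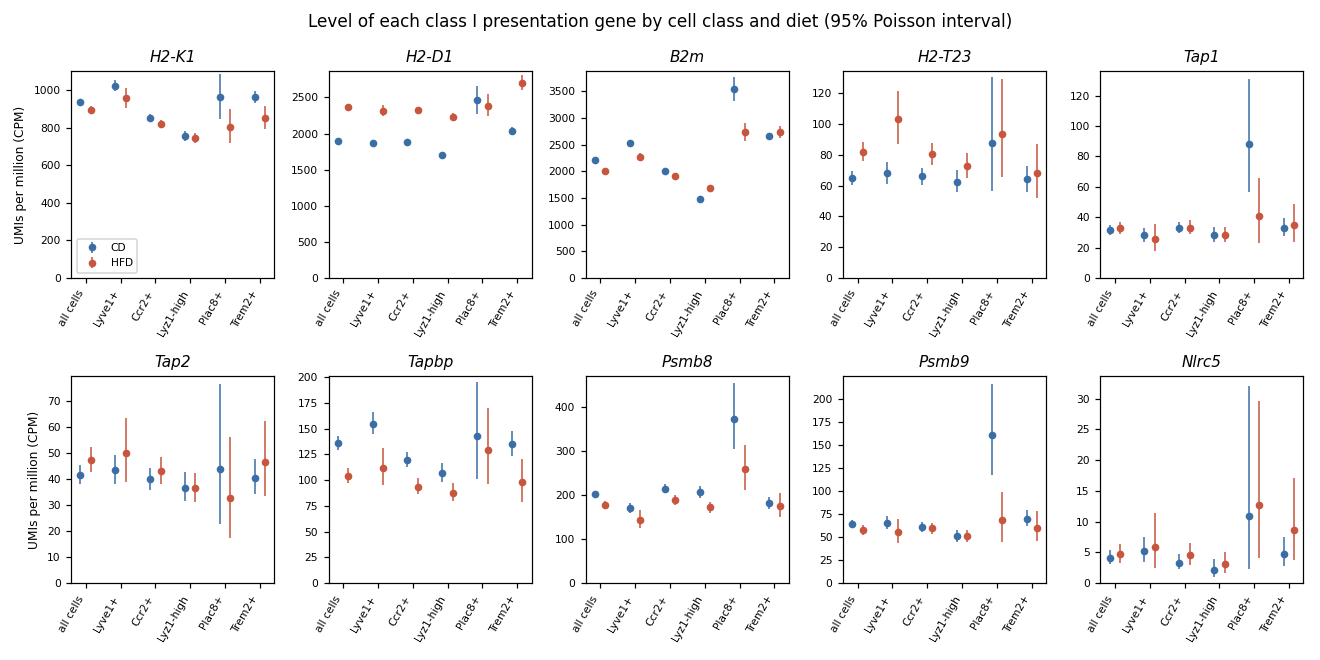
Levels of the 10 genes in CPM (vertical axis, linear, from 0) in all cells and in 5 cell classes, for CD (blue) and HFD (red); points are summed UMIs of 1 library and bars are 95% Poisson intervals. *H2-D1* lies higher on HFD in all cells and in every class but Plac8+, where CD has 2461 and HFD 2388 CPM, and the bars are widest for Plac8+ cells and for *Nlrc5*.

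To compare single cells at 1 depth, each cell was thinned to 800 UMIs. The median cell then held 2 UMIs of *B2m* on CD and 1 on HFD, 1 of *H2-D1* on CD and 2 on HFD, and 1 of *H2-K1* on both. Cells with at least 1 UMI were 79.6% and 74.5% for *B2m*, 74.1% and 80.4% for *H2-D1*, and 55.4% and 55.7% for *H2-K1*; without thinning, *H2-K1* was seen in 96.4% and 89.3% of cells. *Tapbp* was seen in 12.3% of thinned CD cells and 8.22% of thinned HFD cells, and *Nlrc5* in 0.343% and 0.320%. The variance over the mean across thinned cells was 1.41 and 1.51 for *B2m*, 1.32 and 1.45 for *H2-D1* and 1.17 and 1.23 for *H2-K1* on CD and HFD, and between 0.955 and 1.07 for the other 7 genes, where 1 is the value of pure counting.

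To ask how overnight HFD feeding differed from CD, the ratio of HFD over CD was taken over all cells, and a gene was called higher or lower when it passed 1.5-fold with at least 50 UMIs over both libraries. None of the 10 members passed in either direction. Of the 9929 genes tested, which reach down to 50 UMIs, 4.70% were higher and 8.94% lower. With 10 members, a count of 0 is not far from these shares, and it is not read as a trait of the members. The median log2 ratio was -0.01 over the members and -0.02 over all genes tested. *H2-T23* had the highest log2 ratio, 0.34 (0.19 to 0.49), next to *H2-D1*, 0.32 (0.29 to 0.35). *Tapbp* had the lowest, -0.38 (-0.50 to -0.26), and *Psmb8* had -0.19 (-0.28 to -0.09). *H2-K1*, at -0.07, and *B2m*, at -0.13, were close to 0. The intervals of *Tap1*, *Tap2*, *Psmb9* and *Nlrc5* held 0. The sign of 3 small ratios depended on scaling: *H2-K1* was at 0.09 with cells weighed equally and 0.06 after thinning, *Tap1* at -0.05 and *Psmb9* at 0.09 after thinning.

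The classical heavy chains thus had unlike ratios. There were 2.02 UMIs of *H2-D1* per UMI of *H2-K1* on CD (1.98 to 2.07) and 2.65 on HFD (2.58 to 2.72). The ratio was 1.82 on CD and 2.42 on HFD in Lyve1+ cells, 2.20 and 2.84 in Ccr2+ cells, and 2.26 and 3.00 in Lyz1-high cells, with intervals apart in each. In Trem2+ cells it was 2.12 (2.03 to 2.20) on CD and 3.17 (2.92 to 3.43) on HFD. In Plac8+ cells it was 2.56 (2.21 to 2.96) and 2.96 (2.60 to 3.37), and the intervals overlapped. Set against *B2m*, *H2-D1* had 0.860 UMIs per UMI on CD and 1.18 on HFD, while *H2-K1* had 0.424 and 0.444.

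**Figure D2:**
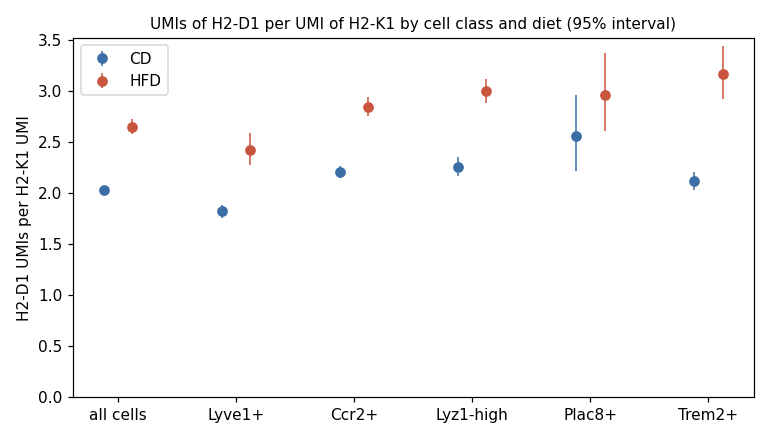
UMIs of *H2-D1* per UMI of *H2-K1* (vertical axis, linear, from 0) in all cells and 5 cell classes, for CD (blue) and HFD (red), with 95% intervals for counting error. HFD lies above CD in every set of cells, from 2.96 against 2.56 in Plac8+ cells to 3.17 against 2.12 in Trem2+ cells.

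Within classes, which make up different shares of the 2 libraries, 2 values passed 1.5-fold. In Lyve1+ cells, which carry the marker of resident ATMs, *H2-T23* had 68.0 CPM on CD (365 UMIs) and 103 CPM on HFD (142 UMIs), a log2 ratio of 0.60 (0.31 to 0.88). It was the only member called there, with 7.27% of all genes higher and 8.58% lower. In the same cells *Tapbp* went from 155 CPM on CD to 112 CPM on HFD (-0.47, -0.73 to -0.22) and *H2-D1* from 1865 to 2317 CPM (0.31). *H2-T23* is also the member that shares sequence with other genes.

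In Plac8+ cells, which carry a gene known from monocytes, *Psmb9* had 161 CPM on CD (44 UMIs) and 68.3 CPM on HFD (27 UMIs), a log2 ratio of -1.24 (-1.99 to -0.51). The background there was 8.37% higher and 7.96% lower over 1708 genes, and 7 members reached the count minimum. *B2m* had 3537 CPM on CD and 2728 CPM on HFD in these cells (-0.37, -0.50 to -0.25), and *Psmb8* 373 and 258 CPM (-0.53, -0.94 to -0.12). A single one of the 42 CD Plac8+ cells held a UMI of the stromal and mesothelial markers, yet these summed to 525 UMIs, 1922 CPM, against 5.06 CPM in HFD Plac8+ cells. Cells with a UMI of selected endothelial, T or NK, B, stromal or mesothelial markers were then left out. This kept 35 of 42 CD and 69 of 73 HFD Plac8+ cells, and *Psmb9* was at -1.32. Dendritic and erythroid markers were not in that selection. A UMI of the dendritic markers was seen in 66.7% of CD and 43.8% of HFD Plac8+ cells.

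No member passed 1.5-fold in Ccr2+ cells, which carry the receptor for monocyte recruitment (background 4.17% higher, 8.21% lower), in Lyz1-high cells (4.81% and 6.05%) or in Trem2+ cells, which carry the marker of lipid-associated macrophages (8.88% and 16.8%). *H2-D1* was at 0.31 in Ccr2+, 0.39 in Lyz1-high and 0.41 in Trem2+ cells, and at -0.04 (-0.19 to 0.10) in Plac8+ cells. *Tapbp* was at -0.36 in Ccr2+, -0.29 in Lyz1-high and -0.46 in Trem2+ cells, with each interval below 0, and at -0.15 (-0.78 to 0.49) in Plac8+ cells. *B2m* was at 0.19 (0.14 to 0.23) in Lyz1-high cells, where it went from 1486 to 1692 CPM, and at -0.16 (-0.22 to -0.10) in Lyve1+ cells. *Psmb8* lay between -0.05 in Trem2+ and -0.53 in Plac8+ cells. Trem2+ cells differed in make-up between the libraries: 60.5% of them on CD and 19.0% on HFD were also Lyve1+, and resident markers summed to 10126 CPM on CD and 3647 CPM on HFD, lipid-associated markers to 986 and 2317 CPM, and monocyte markers to 46.4 and 277 CPM. The part of this in the Trem2+ values was not tested. *Tap1* and *Tap2* had intervals that held 0 in every class where they reached the minimum.

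**Figure D3:**
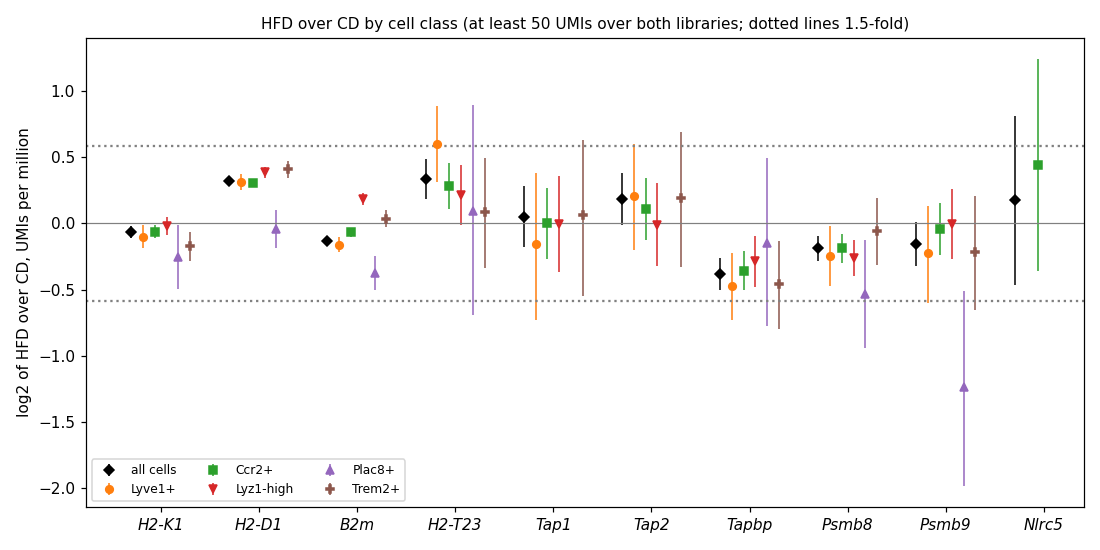
Log2 ratio of HFD over CD of CPM (vertical axis) for each gene in all cells (black) and in 5 cell classes, where at least 50 UMIs were counted over both libraries; bars are 95% intervals and dotted lines mark 1.5-fold. Past the dotted lines lie *H2-T23* in Lyve1+ cells, at 0.60, and *Psmb9* in Plac8+ cells, at -1.24.

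Since the classes overlap, cells were also split into 7 groups that do not: those of 1 class alone, of several and of none. With the 7 groups weighed by their CD shares, the log2 ratios of HFD over CD were -0.40 for *Tapbp*, 0.31 for *H2-D1*, 0.35 for *H2-T23* and -0.12 for *B2m*, each within 0.03 of its pooled value. This held the make-up fixed only in part. Cells of several classes formed 1 group, with 67.4% of CD and 64.2% of HFD UMIs. Its content differed between the libraries: 386 CD and 32 HFD cells were both Lyve1+ and Trem2+. *H2-D1* was above 0 in 7 of 7 groups, with the highest values in cells that were Lyz1-high alone, 0.71 (0.45 to 0.98), and Plac8+ alone, 0.60 (0.08 to 1.13). *Tap2* was also above 0 in each, but its interval held 0 in all 7. *Psmb8* was above 0 in 1 of 7 and lowest, at -0.86 (-1.68 to -0.02), in cells that were Lyz1-high alone, and *Tapbp* was at -0.59 (-1.01 to -0.19) in cells that were Lyve1+ alone. Cells that were Lyz1-high alone numbered 14 on CD and 55 on HFD, and those Plac8+ alone 6 and 10. The share of all genes past 1.5-fold was not counted in the 7 groups. *H2-T23* was at 0.92 (0.41 to 1.42) in cells that were Lyve1+ alone and at 0.74 (0.34 to 1.14) in cells that were Ccr2+ alone, and at 0.17 (-0.02 to 0.37) in cells of several classes. In cells of no class, which were not among the 5 classes and were looked up after their values had been seen, *Psmb8* was at -0.65 and *Psmb9* at -0.73.

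Each class was also set against the other cells of its own library. No member passed 1.5-fold in the same direction in both libraries in any class, and 9 members could be tested in both, *Nlrc5* being too low on HFD. Over all genes tested in both, 6.91% were higher and 3.63% lower in Lyve1+ cells, 4.79% and 11.8% in Ccr2+ cells, 4.12% and 14.5% in Lyz1-high cells, 3.70% and 7.69% in Plac8+ cells, and 1.10% and 2.01% in Trem2+ cells. This count of 0 depended on the settings, and *Psmb8* in Plac8+ cells fell just short, with log2 0.91 on CD and 0.57 on HFD against a limit of 0.585.

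In Lyz1-high cells *B2m*, *H2-K1* and *Tapbp* lay below the other cells in both libraries. *B2m* had 1486 CPM in them against 2660 CPM in the other cells on CD (log2 -0.84, -0.88 to -0.80) and 1692 against 2434 CPM on HFD (-0.52, -0.57 to -0.48). *H2-K1* was at -0.47 on CD and -0.55 on HFD, and *Tapbp* at -0.52 on both. *Psmb9* was also lower in both, at -0.49 (-0.72 to -0.27) on CD and -0.37 (-0.63 to -0.10) on HFD. *H2-D1* was less far from the other cells, at -0.24 and -0.19. *Tap2* was at -0.29 (-0.56 to -0.02) on CD and -0.76 (-1.06 to -0.46) on HFD. *H2-T23* was at -0.08 (-0.30 to 0.13) on CD and -0.38 (-0.60 to -0.16) on HFD, and *Psmb8* at 0.05 (-0.07 to 0.16) and -0.10 (-0.26 to 0.05). The median member was at -0.38 on CD and -0.46 on HFD, and the median of all genes at -0.19 and -0.20.

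Ccr2+ cells, which hold most Lyz1-high cells, were alike in part. *H2-K1* was at log2 -0.40 and -0.47, *B2m* at -0.44 and -0.30 and *Tapbp* at -0.54 and -0.57 on CD and HFD. *Psmb8* lay on the other side, at 0.33 (0.19 to 0.46) and 0.40 (0.21 to 0.59). In Lyve1+ cells the signs were turned, with *B2m* at 0.38 and 0.21, *H2-K1* at 0.24 and 0.12 and *Psmb8* at -0.40 and -0.35. *Psmb8* on one hand and *B2m* and *H2-K1* on the other thus lay on opposite sides of 0 in both of these classes and in both libraries. The medians of members and of all genes were close. In Lyve1+ cells the median member was at 0.11 on CD and 0.09 on HFD, as was the median of all genes. In Ccr2+ cells the median member was at -0.21 and -0.13, and the median of all genes at -0.14 and -0.19.

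Plac8+ cells had the highest *B2m* level of any class on CD, 3537 CPM against 2175 CPM in the other cells (log2 0.70, 0.61 to 0.79), and were at 0.47 (0.37 to 0.55) on HFD. On CD, *Tap1* had 87.9 against 30.2 CPM, with 24 UMIs in the class (1.54, 0.88 to 2.14), and *Psmb9* 161 against 61.9 CPM (1.38, 0.91 to 1.82). On HFD, *Tap1* was at 0.33 (-0.50 to 1.06) and *Psmb9* at 0.26 (-0.36 to 0.82). The median member was at 0.58 on CD and 0.26 on HFD, against -0.06 and -0.05 for all genes. The difference between the libraries was not tested. Leaving out cells with the selected endothelial, T or NK, B, stromal or mesothelial markers, but not those with dendritic or erythroid ones, kept 35 of 42 CD cells. *B2m* was then at 0.577, below the limit of 0.585, and *Tap1* at 1.31 on CD. *Psmb8*, at 0.91 on CD, was at 0.11 when cells of exactly 1 class were set against cells of no class, and *Psmb9*, at 1.38 on CD, was at 0.79 after thinning.

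Trem2+ cells had *B2m* at 2661 CPM on CD and 2731 CPM on HFD, log2 0.40 and 0.51 over the other cells, and *H2-D1* at 0.15 and 0.22. The other members with at least 50 UMIs in the comparison lay between -0.30 and 0.26 there, most with intervals that held 0. On CD, 1509 CPM of hemoglobin RNA were counted in Trem2+ cells, against 15.1 CPM on HFD; its part in the levels was not tested.

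**Figure D4:**
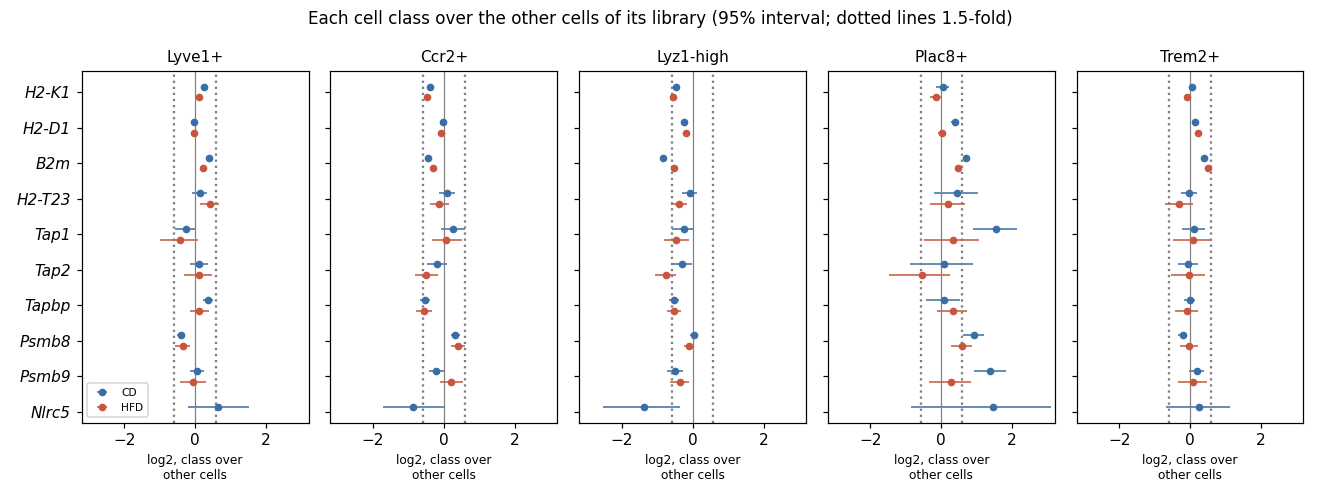
Log2 ratio of each cell class over the other cells of its library (horizontal axis) for the 10 genes, on CD (blue) and HFD (red), for genes with at least 50 UMIs in that library; bars are 95% intervals and dotted lines mark 1.5-fold. *B2m* in Lyz1-high cells lies at -0.84 and -0.52, and *Tap1* and *Psmb9* in Plac8+ cells lie at 1.54 and 1.38 on CD.

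Interferon is a known inducer of the class I genes, so cells with and without a UMI of 22 interferon-stimulated genes, none of them a member, were compared after the thinning had set who belonged to which. Cells with such a UMI made up 23.1% on CD and 22.3% on HFD, and were shallower, with a median of 3999 against 4711 UMIs on CD and 2492 against 3408 on HFD. *B2m* was at log2 0.33 (0.29 to 0.37) on CD and 0.34 (0.29 to 0.40) on HFD in cells with such a UMI over those without. *H2-K1* was at 0.26 and 0.27, and *H2-D1* at 0.10 and 0.08. *H2-T23* was at 0.41 and 0.39, and *Tapbp* at 0.22 and 0.34. All 10 members were above 0 in both libraries, where the median of all genes was 0.05 in each. The share of all genes above 0 was not counted, so this count of 10 has no background. For *Tap2*, and for *Tap1* by a small margin, the intervals held 0 in both libraries, as did those of *Psmb8* and *Psmb9* on CD and of *Nlrc5* on HFD. Past 1.5-fold was 1 of 10 members on CD, *Nlrc5*, upward, where 4.74% of 9077 genes were higher and 3.73% lower. On HFD it was 0 of 9, where 8.29% of 8103 genes were higher and 4.27% lower.

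Among classes, the same split gave *B2m* 0.24 and 0.23 in Lyve1+ cells on CD and HFD, and 0.40 and 0.39 in Ccr2+ cells. In Lyz1-high cells *B2m* was at 0.09 (-0.01 to 0.19) on CD, an interval that held 0, and at 0.29 (0.20 to 0.38) on HFD. Cells with such a UMI made up 25.9% of Lyve1+, 35.7% of Plac8+ and 12.97% of Lyz1-high cells on CD. On HFD they made up 28.4%, 30.1% and 12.8%. The part of this uneven spread in the values over all cells was not tested. In Plac8+ cells *B2m* was at 0.55 (0.36 to 0.74) on CD and 1.11 (0.94 to 1.29) on HFD, from 15 and 22 cells with such a UMI. *H2-D1* remained within 0.21 of 0 in every class in both libraries. Upward past 1.5-fold were, on HFD, 3 of 5 members in Plac8+ cells, *B2m*, *Psmb8* (0.77, 0.16 to 1.37) and *Tapbp* (0.77, -0.11 to 1.63), where 13% of genes were. They were 2 of 8 in Lyve1+ cells, *Psmb9* (0.92) and *Tapbp* (0.59), where 10.5% of genes were, and 1 of 7 in Trem2+ cells, *Psmb9* (1.17), where 6.41% were. No member was called in the other 7 sets of class and library. Of the 100 values of a member in a class, 9 were below 0, among them *H2-K1* at -0.11 in Plac8+ cells on CD and *Tap2* at -0.44 in Lyve1+ cells on HFD, and each of the 9 had an interval that held 0. Many of the values above 0 also had such an interval, as *Tap2* in Plac8+ cells on CD, at 1.25 (-0.63 to 3.24) from 7 and 5 UMIs. The classes overlap, so the 100 values are not separate, and the share of all genes above 0 was not counted.

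**Figure D5:**
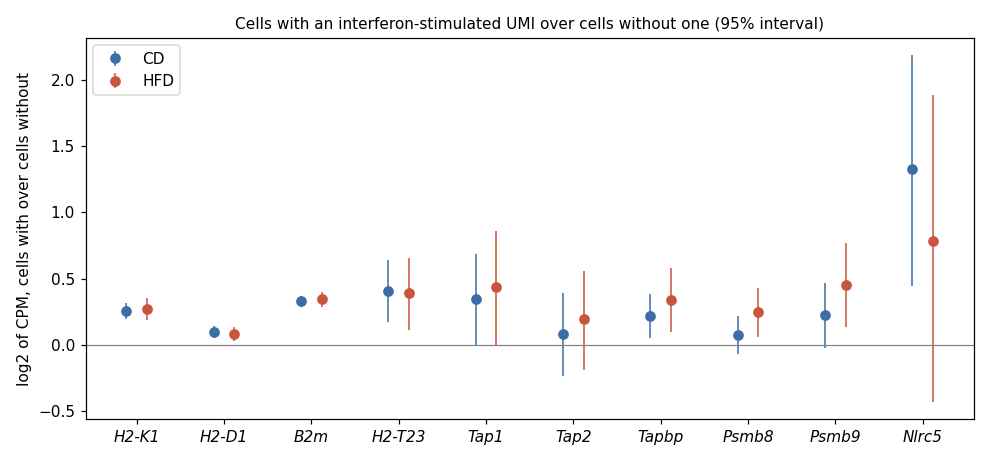
Log2 ratio of CPM in cells with a UMI of the 22 interferon-stimulated genes over cells without (vertical axis), for CD (blue) and HFD (red), with 95% intervals for counting error. All points lie above 0, and some bars reach below it. *H2-D1* has the lowest point on HFD, at 0.08, and *Nlrc5* the highest, at 1.33 and 0.78, with intervals that are the widest.

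Other genes of the class I pathway came from a list of 59, of which 57 were counted and 53 reached the minimum over all cells. In HFD over CD, 1 passed 1.5-fold upward and 1 downward, against 4.70% and 8.94% of all genes tested. The median log2 ratio of the list was -0.04. *Lnpep*, an aminopeptidase of endosomes that can trim peptides, was at 0.60 (92.8 and 141 CPM). *Socs1*, an inhibitor of interferon signalling, was at -1.11 (-1.70 to -0.56), with 115 UMIs on CD and 35 on HFD. The chaperones of the loading complex lay on the other side of 0 from *Tapbp*: *Calr* was at 0.26 (0.20 to 0.32) and *Pdia3* at 0.39 (0.32 to 0.45), while *Canx* was at 0.06. The trimming peptidase *Erap1* was at 0.04. Other heavy chains were at -0.43 (*H2-M3*), -0.21 (*H2-Q4*), 0.04 (*H2-Q7*) and -0.12 (*H2-T22*), and were looked up for comparison with *H2-D1* after its value had been seen.

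The immunoproteasome genes were compared with the constitutive subunits they replace. *Psmb5* was at 0.14 (0.04 to 0.25) and *Psmb6* at 0.12 (0.02 to 0.21) in HFD over CD, against -0.20 (-0.33 to -0.06) for the third inducible subunit *Psmb10*, and the activator genes *Psme1* and *Psme2* were at -0.14 and -0.17. There were 1.37 UMIs of *Psmb8* per UMI of *Psmb5* on CD (1.29 to 1.46) and 1.09 on HFD (1.01 to 1.18). *Psmb9* had 0.355 UMIs per UMI of *Psmb6* on CD (0.3270 to 0.385) and 0.294 on HFD (0.265 to 0.3266), intervals that lay just apart. *Psmb10* had 1.05 per UMI of *Psmb7* on CD (0.971 to 1.14) and 0.931 on HFD (0.841 to 1.03), with overlapping intervals. Among classes, the intervals of *Psmb9* to *Psmb6* overlapped in Ccr2+ (0.337 and 0.308), Lyz1-high (0.282 and 0.256), Lyve1+ and Plac8+ cells. Those of *Psmb8* to *Psmb5* lay apart in Lyve1+ (1.30 and 0.961), Ccr2+ (1.42 and 1.18) and Lyz1-high cells (1.27 and 0.994). They overlapped in Plac8+ cells (2.27 and 1.34). In Trem2+ cells, where *Psmb5* and *Psmb6* themselves passed 1.5-fold (0.64 and 0.70), the ratios were 1.30 and 0.798 for *Psmb8* and 0.365 and 0.194 for *Psmb9*. Of the regulators, the interferon response factor gene *Irf1* was at -0.34 (-0.47 to -0.20), *Irf2* at 0.17 and *Rfx5*, a subunit of regulatory factor X, at 0.28 (-0.22 to 0.77).

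Within classes the pathway list had 2 of 52 tested genes higher and none lower in Lyve1+ cells (*Lnpep* 0.70 and *Rfx5* 0.78), against 7.27% and 8.58% of all genes tested. Ccr2+ cells had none higher and 2 of 52 lower (*Rfxank* -0.69 and *Socs1* -1.30), against 4.17% and 8.21% of all genes tested, and Lyz1-high cells none of 50. In Plac8+ cells, where 8.37% and 7.96% of all genes were higher and lower, 3 of 29 were higher, *Irf8* (1.08), *Lnpep* (0.74) and *Psma5* (0.60), and 1 was lower, *Psmb4* (-0.64). In Trem2+ cells, where 8.88% and 16.8% of all genes were higher and lower, 6 of 48 were higher and 5 lower. The 6 were 4 proteasome core genes, *Psmb5*, *Psmb6*, *Psma5* (0.60) and *Psma6* (0.76), with *Nfya* (0.66) and *Irf8* (0.63), and the 5 were *Rfxank* (-2.06), *H2-M3* (-0.73), *Irf1* (-0.66), *Jak2* (-0.60) and *Jak1* (-0.59). Among lists on other pathways, none of 9 class II genes and 4 of 21 interferon-stimulated genes passed over all cells: *Ifit1* (0.93), *Usp18* (0.93) and *Oas3* (1.23) were higher and *Iigp1* (-1.40) was lower. Of all genes tested over all cells, 4.70% were higher and 8.94% lower.

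The lists were also counted in each class over the other cells of its library, with the same background as for the members. The count minimum took the class and the other cells together, so a call can rest on few UMIs in the class. Among the members, *Nlrc5* in CD Plac8+ cells was called higher on 3 UMIs, at 1.46 (-0.87 to 3.09). For the list genes, UMIs in the class and intervals are not given here, so the calls in Plac8+ cells are less certain. In Plac8+ cells, 5 of 51 pathway genes passed 1.5-fold upward in both libraries: *Psmb10* (0.79 on CD and 0.77 on HFD), *Psme1* (1.25 and 0.83), *Psme2* (0.94 and 0.67), the interferon-gamma receptor gene *Ifngr2* (0.90 and 0.83) and *Rfx5* (0.80 and 1.28); *Nfya*, a subunit of NF-Y, was lower (-0.64 and -1.10). In Lyz1-high cells 4 passed downward, *Irf8* (-2.45 and -2.43), *H2-M3* (-1.11 and -0.99), *H2-Q4* (-0.89 and -0.79) and *Rfx5* (-0.81 and -1.40), and 2 upward, the proteasome genes *Psma4* (0.79 and 0.60) and *Psma7* (0.63 and 0.70). Of the interferon-stimulated genes, 15 of 22 had enough UMIs in both libraries, and 11 of these were higher in Plac8+ cells, among them the antiviral regulator *Irf7* (4.91 and 3.64), *Isg15* (3.09 and 1.84), *Rsad2* (2.95 and 1.13), *Usp18* (2.77 and 1.07) and *Zbp1* (2.39 and 2.27). In Lyz1-high cells 11 were lower, among them *Ifi204* (-1.89 and -2.72), *Oasl2* (-1.88 and -2.16), *Ifit1* (-1.63 and -2.25), *Rtp4* (-1.94 and -1.49) and *Rsad2* (-1.39 and -2.00).

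Class II genes, which present peptides to CD4 T cells, had 5 of 9 higher in Ccr2+ cells in both libraries, with *H2-Ab1* at 0.78 and 0.80, *Cd74* at 0.66 and 0.76, *H2-DMa* at 1.29 and 1.38, *H2-DMb1* at 1.18 and 1.20 and *H2-DMb2* at 2.94 and 1.48. Over all genes tested in both libraries, 4.79% were higher in Ccr2+ cells. In these cells the class I members were unlike each other. *B2m* was at -0.44 and -0.30 and *H2-K1* at -0.40 and -0.47, while *H2-D1* was at -0.03 and -0.09 and *Psmb8* at 0.33 and 0.40. The median member was at -0.21 on CD and -0.13 on HFD, and the median of all genes at -0.14 and -0.19. No difference between the lists was tested.

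To find genes whose levels went with a member, log2(CPM + 10) was correlated over the 7 disjoint groups of both libraries, 14 points, among 2446 genes with at least 1000 UMIs. The points share libraries and differ in depth, the smallest groups held few UMIs, and the values are a description. Between members, *B2m* and *Psmb9* had the highest Pearson r, 0.87, then *B2m* and *Tap2*, 0.81, while *H2-K1* and *H2-D1* had -0.02. Most like *B2m* were *Mgst1* (0.93), *Gstm1* (0.93) and *Itm2c* (0.91), most like *H2-K1* were *mt-Atp6* (0.94), *Tcf4* (0.91) and *Ier5* (0.90), and most like *H2-D1* were *Hist1h1c* (0.91), *Rock1* (0.89) and *Spcs2* (0.85). For the other 7 members the likest gene had an r between 0.79 (*Tapbp*, with *Ubap2l*) and 0.93 (*Nlrc5*, with *Bcl7c*).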

How the data were processed

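ATMs were profiled with 10x 3′ V2 chemistry, 1 library per diet from 3 pooled mice. Raw UMI counts, deposited without normalization, were produced by the authors using Cell Ranger 3.0.2 (mm10 genome, Ensembl annotation); 3′ counting makes levels independent of transcript length, and reads that map to several genes are by default not counted. The members and lists were chosen with earlier results of these data known. Cells with 200 to 3500 genes and at most 10% mitochondrial UMIs were kept, doublets included (Python 3.11.15, numpy 2.4.6, scipy 1.17.1, pandas 2.3.3). UMIs were summed per library and class and given as CPM with exact Poisson intervals. Exact conditional binomial intervals were given for ratios. Intervals are at 95% and cover counting error alone. For shares of cells, every cell was thinned to 800 UMIs, leaving out 30 CD and 147 HFD cells that were shallower. A gene was called past 1.5-fold with at least 50 UMIs over both groups, on all genes of the table. Tests between diets were not possible with 1 library each. Named were all members, list genes past 1.5-fold (up to 5 each way, in the comparisons described), 13 pathway genes fixed for their role (1 is not reported here), and the 3 genes most like a member; genes named outside this rule are said to be. Alternatives changed the cell limits, scaling, depth, doublets (Scrublet in scanpy 1.11.5), class definitions and count minimum. Interval and call steps were tested on simulated library totals with counting error alone. These had no further spread between cells, so the test does not cover such spread. Positions are from GENCODE M21 and promoters from RefSeq. The paper's clusters, flow cytometry and human data were not used here.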

Additional observations from a re-analysis of the deposited data

Results flagged for a closer look

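*B2m* had ratios of HFD over CD with intervals on opposite sides of 0 in different cell classes. The log2 ratio was 0.19 in Lyz1-high cells, and -0.16 in Lyve1+, -0.065 in Ccr2+ and -0.37 in Plac8+ cells. The difference between the classes was not tested, the classes overlap, and each diet had 1 library. No other member had intervals on both sides of 0 among the classes.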

How the results depend on the processing

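Over all cells, 0 members passed 1.5-fold upward in HFD over CD under each of 13 alternatives, and 0 downward under 12; after thinning to 800 UMIs there was 1, *Tapbp*, at log2 -0.65. The difference in log2 ratio between *H2-D1* and *H2-K1* was 0.39 and ranged from 0.23 (cells weighed equally) to 0.49 (at least 1000 genes).

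Within classes, the count of 1 higher value became 2 with a count minimum of 20, 0 with classes from 2 UMIs and 4 in cells of exactly 1 class. The count of 1 lower value became 2 with a mitochondrial limit of 5%, with at least 1000 genes, with a minimum of 20, with classes called on thinned cells and in cells of exactly 1 class, 3 with classes from 2 UMIs and 0 with a minimum of 200. After thinning, the counts were unaltered but the values were *Tap2* and *Tapbp* in Lyve1+ cells. The share of all genes past 1.5-fold was not counted under these alternatives, so the counts have no background. *H2-T23* in Lyve1+ cells was past 1.5-fold under 14 of 16 alternatives, the others being thinning (0.45) and classes from 2 UMIs (0.57), and *Psmb9* in Plac8+ cells under all 12 that gave it enough UMIs.

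Against the other cells of a library, the count of 0 higher in both libraries became 1 with the study's upper limit on genes, a mitochondrial limit of 20%, a denominator without mitochondrial and ribosomal protein genes, cells with other markers left out, or a minimum of 20; 3 with cells weighed equally, 2 after thinning, 4 with classes called on thinned cells and 5 with classes from 2 UMIs. All of these were in Plac8+ cells, of which the last 2 settings kept 17 and 19 on CD. Here too the share of all genes past the fold was not counted under the alternatives, so whether the members differ from other genes there was not tested. The count of 0 lower became 1 with a mitochondrial limit of 5% or 20%, at least 1000 genes, thinning, a minimum of 20 and cells of exactly 1 class. *Nlrc5* in Ccr2+ over other CD cells, -0.88, was at 0.017 with classes called on thinned cells. The cause of these moves was not tested. No paired analysis was possible because each diet had 1 library. *Nlrc5* is limited by its 51 and 38 UMIs, and Plac8+ values by 42 and 73 cells.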
